A study of Mus musculus with 2 samples.

Results

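Amino acid transporters were examined in glucagon-expressing alpha cells of the mouse islet, for 8 genes of the 31053 in the files. They were chosen by name as carriers of amino acids, with earlier results of these data known. Slc38a5, Slc38a4, Slc38a2 and Slc38a1 carry glutamine or other small neutral amino acids. Slc7a2 carries arginine, and Slc7a5 and Slc7a8 with their heavy chain Slc3a2 carry large neutral amino acids. Islets of 2-week-old female mice had been dispersed and profiled by droplet single-cell RNA sequencing, with 1 library from wild-type (WT) mice and 1 from Npc1KO mice, which lack Npc1 in every tissue (Npc1-/-). Each library pooled the islets of 3 mice of the same genotype on the C57BL/6J background, with trypsin used to separate the cells, so the libraries differ in genotype, mice and preparation at the same time and these cannot be told apart. Npc1 encodes the lysosomal membrane protein that exports cholesterol. With 1 library per genotype no test between genotypes was possible, and all intervals given are 95% intervals that cover counting error only.

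A barcode entered the analysis if it had over 1000 genes, under 50000 unique molecular identifiers (UMIs), under 10% mitochondrial and at most 0.1% haemoglobin UMIs, which left 4628 of 8569 in WT and 4269 of 7646 in Npc1KO. Endocrine cells were classed by the hormone with most UMIs (Ins1 and Ins2, Gcg, Sst, or Ppy and Pyy, called PP), provided it held at least 10% of the cell's UMIs. This gave 1048 Gcg cells in WT, with a median of 17144 UMIs, and 857 in Npc1KO, with a median of 19110. Beside Gcg, which defined the class, all 7 other alpha cell markers were higher in Gcg than in Ins cells of both libraries, among them Ttr (transthyretin), at 24157 against 820.1 counts per 1000000 UMIs (CPM) in WT and 21288 against 792 CPM in Npc1KO. All 3 delta, 2 PP, 6 endothelial and 6 Schwann markers were also higher there, and 0 of 6 beta cell markers, so this count alone does not check the label. Npc1 itself was low, with 164 UMIs in WT and 93 in Npc1KO Gcg cells (8.87 and 5.42 CPM), and the deleted stretch is not given in the sources used here, so 3′ UMIs of Npc1 check the label only in part. Between the libraries 12 barcode strings were shared, 3 of them among kept barcodes.

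Alpha cells secrete glucagon when circulating amino acids rise, and amino acids also drive their proliferation. The liver answers glucagon by taking up amino acids and breaking them down, which closes a loop between both organs. The Slc38 family carries glutamine and other small neutral amino acids with sodium, the Slc7 family carries cationic amino acids or exchanges large neutral ones, and the exchangers of the latter kind reach the plasma membrane only when bound to the heavy chain Slc3a2.

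Slc38a5 is encoded on the plus strand of the X chromosome at chrX:8271133-8280179 (GRCm38, GENCODE), with up to 16 exons in its transcripts. Slc38a4, Slc38a2 and Slc38a1 lie on the minus strand of chromosome 15, with Slc38a1 at 44478 bases from Slc38a2 and Slc38a2 at 295089 bases from Slc38a4. Slc7a8 lies on chromosome 14 at chr14:54722209-54781946 and Slc3a2 on chromosome 19 at chr19:8706882-8723369. None of the 8 genes overlapped another annotated gene on its own strand. On the opposite strand, Slc7a2 (chr8:40862396-40922308) overlapped the non-coding gene Gm26584 and Slc7a5 (chr8:121881150-121907694) overlapped Gm20388, so reads could be shared there if strand was not used in counting.

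The promoter of Slc38a5, the member whose level differed most between islet cell types, is shown with that of Slc38a2, which was higher outside the endocrine cells. The RefSeq table (GRCm38.p6) held 250 bases before and 50 after the annotated start for 7 starts of 5 members. Both windows read 5′ to 3′ along the gene, and capitals mark the letters CACGTG, an E-box that reads the same on both strands.
Slc38a5, chrX:8271131-8271430, plus strand: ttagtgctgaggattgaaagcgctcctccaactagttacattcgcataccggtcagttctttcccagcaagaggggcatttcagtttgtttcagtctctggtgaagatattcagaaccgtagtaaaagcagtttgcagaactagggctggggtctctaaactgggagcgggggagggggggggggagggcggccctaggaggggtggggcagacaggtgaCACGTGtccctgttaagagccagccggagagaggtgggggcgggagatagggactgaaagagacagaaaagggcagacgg
Slc38a2, chr15:96699679-96699978, minus strand: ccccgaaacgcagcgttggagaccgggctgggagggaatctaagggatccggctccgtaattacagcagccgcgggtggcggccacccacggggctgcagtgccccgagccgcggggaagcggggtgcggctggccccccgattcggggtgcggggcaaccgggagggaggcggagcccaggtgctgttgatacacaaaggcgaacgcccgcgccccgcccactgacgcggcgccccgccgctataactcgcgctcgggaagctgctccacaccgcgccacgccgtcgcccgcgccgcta
The Slc38a5 window held the E-box letters starting 30 bases before its RefSeq start. GENCODE starts this gene earlier, at chrX:8271133, so by that annotation almost all of the window lies inside the gene. The letters stood at any position in 7.15% of the 32851 promoters in the table and in none of the other 6 member windows. The letters TGATGCAA, a core form of the amino acid response element, were searched on both strands and stood in none of the 7 member windows and in 0.895% of all promoters. These matches describe letters only.

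Slc38a5, a system N carrier that takes up glutamine, asparagine, serine and histidine, was by far most abundant in Gcg cells. Its level there was 609 CPM in WT (11263 UMIs, Poisson interval 598 to 620.5) and 500.4 CPM in Npc1KO (8590 UMIs, 489.9 to 511). Gcg cells held 19.7% of the kept UMIs in WT and 18.2% in Npc1KO, but 88.4% and 85.8% of those of Slc38a5. Among the other endocrine classes PP cells came next, at 61.0 CPM in WT and 67.4 in Npc1KO, then Sst cells at 21.4 and 22.2 CPM and Ins cells at 14.5 and 11.0 CPM. The intervals of these 4 endocrine classes did not overlap in either library. Endothelial-like and mesenchymal-like cells lay between 1.10 and 1.99 CPM with overlapping intervals, and leukocyte-like cells held 23 UMIs in WT (11.1 CPM) and 0 in Npc1KO, which allows up to 5.21 CPM (3 counts). Barcodes that no marker list named stood at 121 CPM in WT (82 UMIs) and 54.6 CPM in Npc1KO (121 UMIs), and acinar-like and Schwann-like cells held at most 11 UMIs.

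Free RNA in the droplets gives UMIs to cells that do not express a gene, so the Slc38a5 UMIs of each class were set against its Gcg UMIs. In Gcg cells there were 1.99 Slc38a5 UMIs per 1000 Gcg UMIs in WT and 1.67 in Npc1KO. Endothelial-like cells had 0.512 and 0.807 times that ratio and mesenchymal-like cells 0.845 and 1.14 times, near or under that of Gcg cells. Sst cells had 7.86 and 8.87 times the ratio, PP cells 2.77 and 2.61 times, and Ins cells 2.23 and 2.67 times.

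Part of the Slc38a5 signal of Ins cells sat in barcodes with much Gcg. In WT, 3 Ins barcodes held 176, 68 and 50 of the 797 Slc38a5 UMIs, and Gcg made up 13.5% to 15.6% of their UMIs. Among Ins cells whose next hormone was under 5% of UMIs, Slc38a5 fell to 5.96 CPM (306 UMIs) in WT and 7.30 CPM (354 UMIs) in Npc1KO, at 4.74 and 7.60 times the ratio seen in alpha cells of the same kind. The ratio that free RNA itself has was not measured.

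The remaining Slc38 members had different patterns. Slc38a4, a system A carrier of small neutral amino acids, stood at 115 CPM in WT and 108 in Npc1KO Gcg cells, at 48.6 and 46.8 CPM in Ins cells and at 12.3 and 16.9 CPM in PP cells. Slc38a2, the system A carrier that cells raise when amino acids run short, was higher outside the endocrine cells, with 155 and 159 CPM in mesenchymal-like and 129.6 and 122 CPM in endothelial-like cells against 57.5 and 49.98 CPM in Gcg cells. Slc38a1, the system A carrier of neurons and many other cells, was close to absent in alpha cells, with 17 UMIs in WT and 2 in Npc1KO. Leukocyte-like cells held 61.0% of its UMIs in WT (194 UMIs, 93.5 CPM) but 10.6% in Npc1KO (13 UMIs, 22.6 CPM). In Npc1KO, Sst cells held 20.3% and unnamed barcodes 25.2%. Leukocyte-like cells numbered 302 in WT and 36 in Npc1KO, so these shares are not set against each other at equal class size. In Sst cells Slc38a1 stood at 10.7 and 10.3 CPM.

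Slc7a2, a carrier of arginine, lysine and ornithine, had its highest level in Gcg cells as well, at 263 CPM in WT (interval 256 to 271) and 298 CPM in Npc1KO (289.8 to 306). Unnamed barcodes stood at 112 and 77.6 CPM, Schwann-like cells at 71.0 and 76.0 CPM, mesenchymal-like cells at 66.9 and 77.3 CPM, PP cells at 42.5 and 48.2 CPM and Ins cells at 38.7 and 55.0 CPM. The intervals of PP and Ins cells overlapped in WT, and in Npc1KO Ins cells lay above PP cells without overlap.

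Among the partners of the heteromeric exchangers, the light chain Slc7a8 (LAT2) stood at 98.5 CPM in WT and 99.3 in Npc1KO Gcg cells and at 36.8 and 37.5 CPM in Ins cells. The light chain Slc7a5 (LAT1) was scarce in every endocrine class, between 2.88 and 4.81 CPM, with 66 UMIs in WT and 77 in Npc1KO Gcg cells. Their shared heavy chain Slc3a2 was broadly present, at 187 and 149.8 CPM in Gcg, 97.0 and 74.5 CPM in Ins and 219 and 262 CPM in endothelial-like cells.

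**Figure D1:**
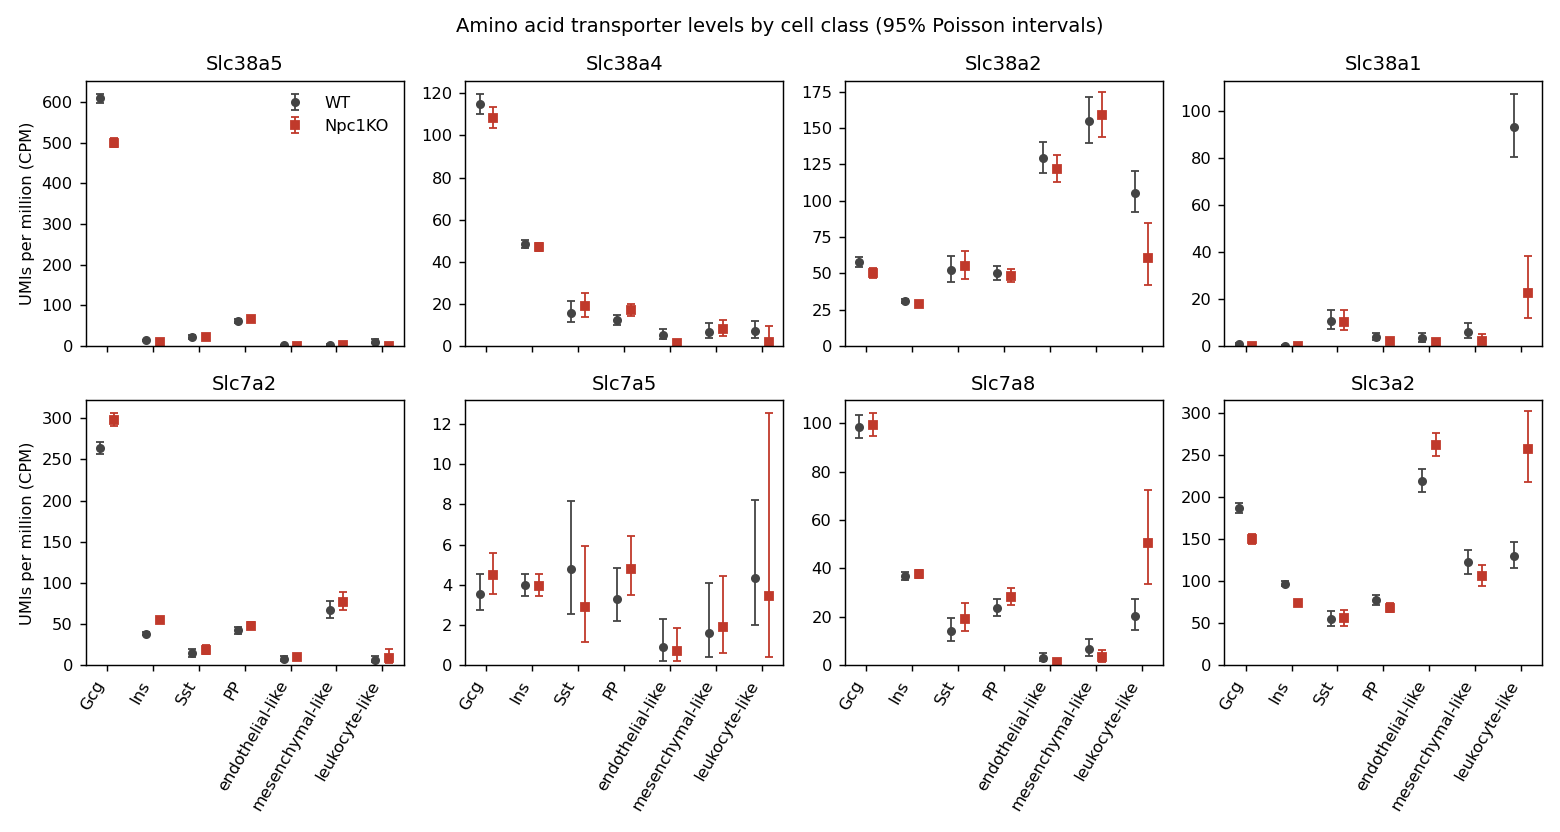
Level of each transporter in CPM (y axis, a separate scale per gene) by cell class (x axis), for the WT (grey circles) and Npc1KO (red squares) library, with 95% Poisson intervals. Slc38a5, Slc38a4 and Slc7a2 peak in Gcg cells of both libraries, Slc38a2 is highest in mesenchymal-like cells, and Slc7a5 stays under 5 CPM in all classes shown.

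Gcg cells were then compared with Ins cells within each library, as log2 ratios of CPM relative to the median gene, among genes with at least 5 CPM in either class. The median gene itself was 0.55 (WT) and 0.45 (Npc1KO) higher in Gcg cells. Of the 6 members that passed this floor, 4 were more than 1.5-fold higher in Gcg cells in both libraries, where 14.9% of all 9923 genes in WT and 13.9% of 10029 in Npc1KO were (13.6% and 12.7% were that much lower). The relative log2 ratio of Slc38a5 was 4.84 in WT (4.73 to 4.94) and 5.05 in Npc1KO (4.93 to 5.18). For Slc7a2 it was 2.22 and 1.99, for Slc7a8 0.87 and 0.95, and for Slc38a4 0.69 and 0.76. Slc38a2 (0.34 and 0.35) and Slc3a2 (0.39 and 0.56) were higher by less than that fold. Because the members were chosen with earlier results of these data known, counts of members between classes, here and below, are no test. Without the highest doublet scores the Slc38a5 ratio rose to 6.22 in WT and 5.32 in Npc1KO, and the 3 WT barcodes described above were among those removed.

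Against PP cells, the closest endocrine class, 5 of 6 members were past 1.5-fold higher in Gcg cells in both libraries, where 7.67% of genes in WT and 7.53% in Npc1KO were (8.76% and 8.74% were that much lower). Slc38a4 had a relative log2 ratio of 3.14 in WT and 2.63 in Npc1KO, near that of Slc38a5 (3.24 and 2.85). The intervals of Slc38a2 covered 0, at 0.13 (-0.04 to 0.30) and 0.01 (-0.16 to 0.17).

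Against Sst cells, 5 of 7 tested members were past that fold higher and 1 lower in both libraries, where 14.3% of genes were higher and 15.8% lower in WT, and 13.3% and 15.2% in Npc1KO. The lower one was Slc38a1, which passed the floor only through Sst cells, with 17 UMIs in Gcg and 29 in Sst cells of WT and 2 and 25 in Npc1KO. Slc7a2 had a relative log2 ratio of 4.35 in WT and 4.15 in Npc1KO, and Slc38a5 of 5.03 and 4.67. Against endothelial-like and mesenchymal-like cells together, 4 of 6 were higher and 1, Slc38a2, lower at -0.71 and -0.92, where 27.1% and 29.9% of genes were higher and lower in WT and 28.2% and 30.5% in Npc1KO. Of the higher ones, Slc38a5 and Slc7a8 passed the floor only through Gcg cells in both libraries, and Slc38a4 did so in Npc1KO. Slc3a2 was at 0.57 (0.48 to 0.67) in WT, and in Npc1KO its interval (-0.09 to 0.09) covered 0.

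Other amino acid transporters went both ways between the classes. In Gcg over Ins cells, 3 of 12 tested other amino acid transporters were past 1.5-fold higher in WT and 3 of 14 in Npc1KO, with 4 and 5 lower, beside 14.9% and 13.9% of all genes higher and 13.6% and 12.7% lower, and the list medians were 0.08 and -0.02. Slc6a17, a carrier of neutral amino acids into vesicles, was at 34.1 against 4.38 CPM in WT and 33.7 against 6.002 in Npc1KO. In WT, Slc6a17 passed the floor of 5 CPM only through Gcg cells. Slc16a10, an aromatic amino acid transporter, was at 176 against 68.1 CPM and 158 against 73.2 CPM. Slc6a6, the taurine transporter, was lower in alpha cells, at a relative log2 ratio of -0.70 and -0.85.

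Of 12 tested genes of glutamine, glutamate and arginine metabolism, 4 were past that fold higher in alpha cells in both libraries, among them Glud1, Arg1 and Oat. Beside them, 14.9% of all genes in WT and 13.9% in Npc1KO were that much higher. In the list, 0 genes in WT and 1 in Npc1KO were that much lower. Glud1, glutamate dehydrogenase, was at 125 against 37.4 CPM in WT and 126 against 50.4 CPM in Npc1KO. Arg1, which splits arginine into ornithine and urea, was at 135 against 21.02 and 150.1 against 22.5 CPM, and Oat, which takes ornithine towards glutamate, at 73.8 against 13.7 and 65.1 against 10.9 CPM. The medians of the list were 0.36 in WT and 0.07 in Npc1KO, where the median of all tested genes is 0, so this description rests on single genes and not on the list.

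Slc38a5 was spread very unevenly over alpha cells. A Gcg cell held between 0 and 180 Slc38a5 UMIs in WT and between 0 and 169 in Npc1KO, with a median of 5 in both, and 8.97% and 9.45% of cells held none. The 52 WT cells with most Slc38a5, about 5% of Gcg cells, held 32.2% of its UMIs, and the 42 such Npc1KO cells held 32.6%. For Slc7a2 the same share of cells held 14.2% and 13.6%, and for Slc3a2 15.2% and 14.9%.

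Shares of cells were compared at equal depth by drawing 5000 UMIs from each cell, and 35 Gcg cells of WT and 16 of Npc1KO had fewer. Slc38a5 was then seen in 72.0% of 1013 WT Gcg cells (exact Clopper-Pearson interval 69.1% to 74.7%) and in 68.8% of 841 Npc1KO cells (65.6% to 72.0%). It was seen in 17.8% and 19.5% of PP cells, 10.5% and 12.2% of Sst cells and 3.71% and 4.05% of Ins cells. None of 390 WT endothelial-like cells held a UMI, which allows a share of up to 0.769% (3 counts), and unthinned 6 of 437 such cells (1.37%) held one. The unthinned shares were 91.0% in WT and 90.5% in Npc1KO Gcg cells. The variance of thinned Slc38a5 UMIs over Gcg cells was 7.10 times its mean in WT and 6.15 times in Npc1KO, at means of 3.02 and 2.47 UMIs. Slc7a2, the member nearest in mean at 1.33 and 1.61 UMIs, had 1.29 and 1.34 times, and this quantity tends to rise with the mean.

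**Figure D2:**
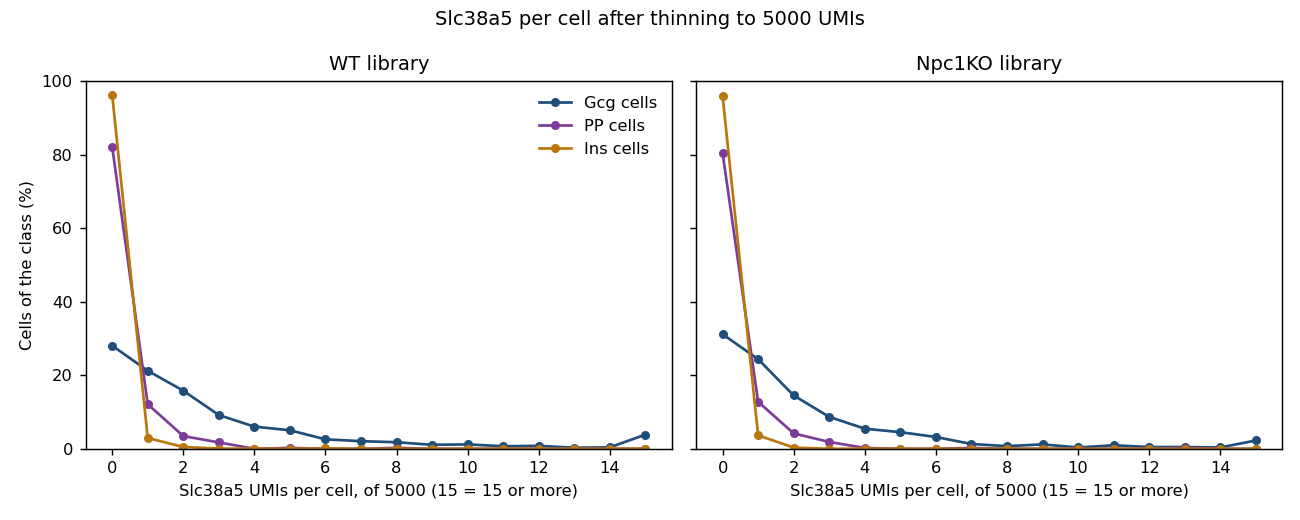
Share of cells (y axis, percent) by number of Slc38a5 UMIs after thinning each cell to 5000 UMIs (x axis, with 15 or more pooled), for Gcg, PP and Ins cells of the WT (left) and Npc1KO (right) library. Ins and PP cells lie mostly at 0, and Gcg cells extend in a long tail past 10 UMIs in both libraries.

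Npc1KO and WT alpha cells were compared next. Relative to the median gene, which lay at 0.03, Slc38a5 was 0.31 lower in Npc1KO on the log2 scale (-0.31, -0.35 to -0.27) and Slc3a2 was lower by a like amount (-0.35, -0.42 to -0.27). Slc38a2 stood at -0.23 (-0.36 to -0.10) and Slc38a4 at -0.11 (-0.20 to -0.02). Slc7a2 was the only member with an interval above 0, at 0.15 (0.09 to 0.21), and Slc7a8 lay at -0.02 (-0.11 to 0.08). None of the 6 members with at least 5 CPM differed by 1.5-fold, where 0.707% of 9897 genes were that much higher and 1.07% that much lower. Slc7a5, under the floor, lay at 0.30 (-0.19 to 0.80).

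The lower Slc38a5 level was seen along the range of cells rather than in the top cells alone. The per-cell level at the lower quartile was 130.3 CPM in WT and 108 in Npc1KO, at the median 307 and 250.2 CPM, at the upper quartile 674 and 555 CPM and at the 95th percentile 2196 and 1825 CPM. With Gcg cells split by depth into 3 parts, the lowest, middle and highest gave 605, 611 and 610.2 CPM in WT and 450.5, 514 and 514 CPM in Npc1KO, so that no part of Npc1KO reached a part of WT.

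The difference was not uniform across alpha cells, however. Some Gcg cells of this age also hold the PP-fold peptides Ppy and Pyy, which made up 3% or more of UMIs in 26.0% of WT and 33.0% of Npc1KO Gcg cells. In cells under 3%, Slc38a5 stood at 650.5 CPM in WT and 479 in Npc1KO, a relative log2 ratio of -0.50 (-0.55 to -0.45). In cells at 3% or more it stood at 502 CPM in WT and 537 in Npc1KO, a ratio of 0.11 (0.04 to 0.18). The counting intervals of both strata do not overlap and the sign of the values turns. These intervals leave out spread between cells, and the variance of thinned Slc38a5 UMIs over Gcg cells was 7.10 and 6.15 times their mean. Whether the turn of sign exceeds that spread was not tested. Within WT, Slc38a5 was lower in cells rich in Ppy and Pyy by 0.35 (-0.35, -0.41 to -0.29), and within Npc1KO it was higher by 0.25 (0.18 to 0.31). None of 6 members was past 1.5-fold between the strata of a library, where 2.07% of genes were higher and 2.41% lower in WT and 1.92% and 4.05% in Npc1KO.

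Slc38a4 turned sign in the same way, at -0.22 in cells under 3% and 0.20 in cells at 3% or more. Slc3a2 was lower in Npc1KO in both strata (-0.35 and -0.32) and Slc7a2 higher in both (0.15 and 0.27). Slc38a2 was at -0.12 (-0.28 to 0.04) and -0.48. Slc7a2 also differed between the strata inside each library, at 289 against 198 CPM in WT and 333 against 237 CPM in Npc1KO, with less in the cells rich in Ppy and Pyy.

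**Figure D3:**
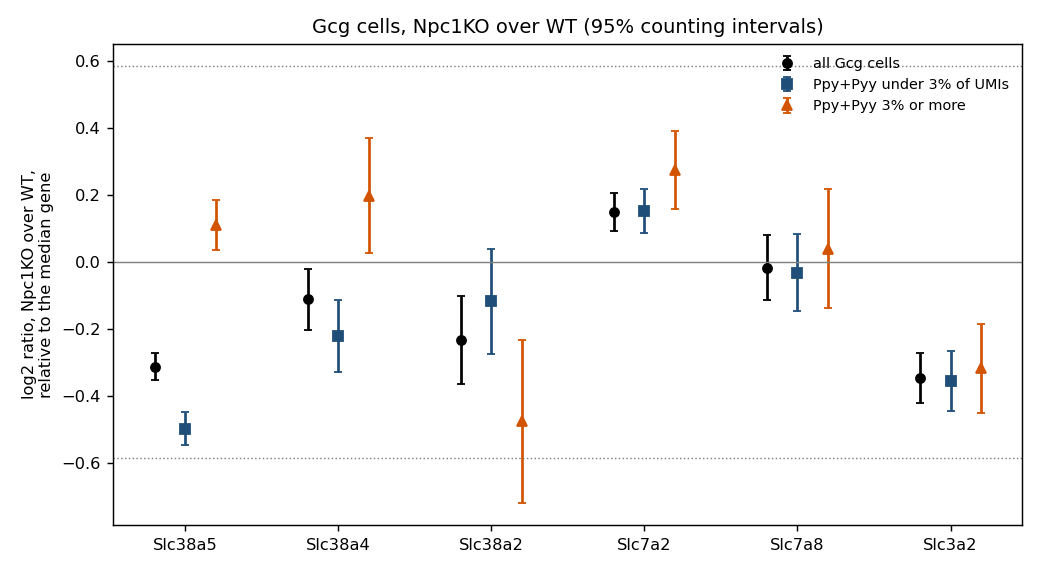
Log2 ratio of Npc1KO over WT relative to the median gene (y axis) for the 6 transporters with at least 5 CPM (x axis), in all Gcg cells (circles), in those with Ppy and Pyy under 3% of UMIs (squares) and in those at 3% or more (triangles), with 95% counting intervals; dotted lines mark 1.5-fold. Slc38a5 lies at -0.31, -0.50 and 0.11, and Slc3a2 and Slc7a2 keep one side of 0 in all 3 sets.

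Immediate early and heat shock genes differed between the libraries. The sum of 9 immediate early and heat shock genes (Fos, Fosb, Jun, Junb, Egr1, Atf3, Hspa1a, Hspa1b and Dnajb1) was 2207 CPM in WT and 1094 CPM in Npc1KO Gcg cells, and a set of cells low in them was chosen after seeing the data. Among Gcg cells under 500 CPM of these genes, 73 in WT and 155 in Npc1KO, Slc38a5 lay at -0.34 (-0.45 to -0.24), Slc3a2 at -0.37 (-0.59 to -0.13) and Slc7a2 at 0.41 (0.21 to 0.62), while Slc38a4 turned to 0.11 (-0.16 to 0.39). Leukocyte markers were also unequal, with the 7 listed genes summing to 30.2 CPM in WT (7 with a UMI) and 2.97 CPM in Npc1KO Gcg cells (6 with a UMI), and their part in the genotype ratios was not tested. Beta cell markers summed to 4026 and 4548 CPM. Nearly all of this sum was Iapp, with 3948 CPM for WT and 4487 for Npc1KO. Every other listed beta cell marker was lower in Npc1KO than in WT Gcg cells. In the same order, Nkx6-1 had 40.5 and 37.0 CPM, Pdx1 15.1 and 10.9, and Slc2a2 8.60 and 6.17. Mafa had 8.11 and 4.19 CPM, and Ucn3 5.62 and 3.15.

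Ins and PP cells gave these genotype ratios side by side, relative to median genes at 0.12 and 0.06. In Ins cells Slc38a5 lay at -0.52 (-0.67 to -0.36), Slc3a2 at -0.50 (-0.56 to -0.44) and Slc7a2 at 0.39 (0.31 to 0.47). In Ins cells with the next hormone under 5% of UMIs (1730 in WT and 1629 in Npc1KO), Slc38a5 went in the opposite direction. It stood there at 5.96 CPM in WT (5.31 to 6.66) and 7.30 CPM in Npc1KO (6.56 to 8.10), with intervals that narrowly overlapped. The part of barcodes with much of another hormone in the genotype ratio was not tested. Over all Ins cells none of 6 members was past 1.5-fold, where 1.3% of genes were higher and 1.35% lower. In PP cells Slc38a5 lay at 0.08 (-0.09 to 0.25), Slc3a2 at -0.25 (-0.41 to -0.09) and Slc7a2 at 0.12 (-0.08 to 0.33), again with none of 6 past the fold, where 2.02% of genes were higher and 2.37% lower. In Sst cells the intervals of all 7 tested members covered 0 and none was past the fold, where 6.31% of genes were higher and 5.6% lower.

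Genes of the surrounding pathways were compared between the genotypes in alpha cells. Of 13 tested other amino acid transporters none was past 1.5-fold, beside 0.707% of all 9897 genes that much higher and 1.07% lower. Their median was -0.02. The highest of those with at least 20 CPM were the large neutral amino acid transporter Slc43a2 (0.14) and Slc6a6 (0.06), and the lowest Slc16a10 (-0.19) and Slc6a17 (-0.05). Of 27 genes of lysosomal amino acid sensing and mTORC1, the kinase complex that answers amino acids at the lysosome, 1 was past the fold. It was higher, beside 0.707% of all genes that much higher. The gene was Rragd, a Rag GTPase, at 14.3 CPM in Npc1KO against 6.87 in WT. Fnip2, a partner of folliculin, lay at 0.57 (0.36 to 0.78) and Sesn2, a leucine sensor, at -0.27 (-0.42 to -0.13), with Fnip1 at 0.17 and Rraga at -0.13, while the list's median was 0.02.

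Genes of the ATF4 response, which cells switch on when amino acids are short, leaned lower in Npc1KO, with 2 of 16 tested genes above the median gene and a list median of -0.17. Only Atf3 was past 1.5-fold, with 20 UMIs in Npc1KO and 499 in WT (1.17 and 27.0 CPM), beside 1.07% of all genes that much lower. Atf3 passed the floor only through WT, and it is also one of the immediate early genes summed above. Mthfd2, a mitochondrial folate enzyme, lay at -0.49 (-0.70 to -0.28), Ddit3 at -0.25 and Asns, asparagine synthetase, at -0.09 (-0.26 to 0.09). Of 12 genes of glutamine, glutamate and arginine metabolism, Ass1 alone was past the fold, beside the same share of all genes lower. Ass1 stood at 4.78 CPM in Npc1KO and 7.30 in WT, so it passed the floor only through WT. Odc1, which makes putrescine from ornithine, lay at -0.36. Srm, the spermidine synthase, lay at -0.32, Arg1 at 0.13 and Glul, glutamine synthetase, at 0.04.

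Cycling alpha cells, defined by at least 3 UMIs of Mki67 and Top2a together, numbered 96 in WT and 81 in Npc1KO and had medians of 22796 and 26633 UMIs, above the 16812 and 18454 of the other Gcg cells. Relative to the median gene, Slc38a5 was lower in cycling cells of WT at -0.42 (-0.51 to -0.33), with 486 against 626 CPM. In Npc1KO it was at 512 against 499 CPM, a ratio of 0.03 (-0.06 to 0.12). The thinned share of cells with a Slc38a5 UMI was 79.8% in cycling and 71.2% in other WT cells, in the direction opposite to the CPM and with overlapping intervals, so no order is read from it.

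Slc7a2 and Slc7a8 were lower in cycling cells of both libraries, at -0.52 and -0.55 for Slc7a2 and at -0.69 and -0.61 for Slc7a8. Slc38a2 was higher, with 90.0 against 53.2 CPM in WT (0.71, 0.47 to 0.93) and 64.5 against 47.9 CPM in Npc1KO (0.43, 0.15 to 0.69). Slc7a5 had 16 UMIs in cycling cells of each library, at 7.31 against 3.07 CPM in WT and 7.37 against 4.07 CPM in Npc1KO, with an interval that reached from 0.29 to 2.03 in WT and from -0.04 to 1.66 in Npc1KO. Of 7 tested members, 2 were past 1.5-fold higher and 1 lower in WT, where 20.5% and 13.3% of genes were, and 1 higher and 1 lower in Npc1KO, where 17.9% and 12.4% of genes were. These counts of higher members include Slc7a5, which passed the floor of 5 CPM only through the cycling cells. Slc3a2 had intervals that covered 0, at -0.05 (-0.20 to 0.10) and 0.09 (-0.08 to 0.25).

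**Figure D4:**
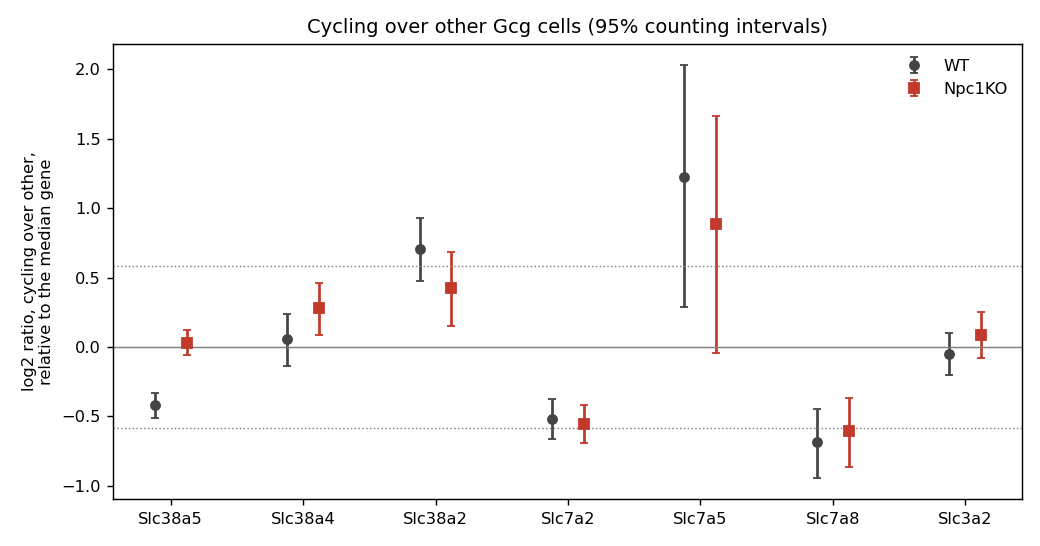
Log2 ratio of cycling over other Gcg cells relative to the median gene (y axis) for 7 transporters (x axis) in the WT (grey circles) and Npc1KO (red squares) library, with 95% counting intervals; dotted lines mark 1.5-fold. Slc7a8 lies under the lower dotted line in both libraries, and Slc38a5 lies at -0.42 in WT and at 0.03 in Npc1KO.

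Of the ATF4 list, 11 of 18 tested genes were past 1.5-fold higher in cycling cells of WT and 6 of 15 in Npc1KO, beside 20.5% and 17.9% of all genes, and the list medians were 0.87 and 0.58. Lower past that fold were Sesn2 and Pycr1 in WT and Aldh18a1 in Npc1KO. Phgdh and Psat1 in both libraries, and Chac1 and Cth in WT, passed the floor only through the cycling cells. Those higher in both were Atf5, Asns, Psat1, Phgdh, Psph and Mthfd2. Psat1, Phgdh and Psph make serine, and Phgdh was at 29.7 against 3.07 CPM in WT and 24.4 against 3.67 CPM in Npc1KO. Mthfd2, which passes serine carbon into folates, was at 99.6 against 14.8 and 63.1 against 11.5 CPM.

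Genes whose pattern over classes was most like that of Slc38a5 were ranked by Pearson correlation of log2(CPM + 1) over 20 sums, 10 classes in each of 2 libraries. The classes of a library share its free RNA and depth, so the values describe these sums. Gcg itself defined the Gcg class, so its rank is not independent of the classing. Among 4920 genes the first were Ttr (transthyretin, r = 0.896), Gc (the vitamin D binding protein, 0.895), Gcg (0.882), Spint2 (0.873), 5330417C22Rik (0.857), Rhou (0.850), Cpn1 (0.848), Hsbp1l1 (0.847), Gpx3 (0.846) and Sphkap (0.838). Unlike Slc38a5, Gc and 5330417C22Rik were higher in PP than in Gcg cells of both libraries, and the other genes named were lower there. Gc was at 190 CPM in PP against 134 in Gcg cells in WT, and at 137 against 113 CPM in Npc1KO. Among the members Slc38a4 came at rank 294 (0.591), Slc7a2 at 344 (0.560) and Slc7a8 at 464 (0.486), while Slc3a2 (-0.245) and Slc38a2 (-0.337) had negative values. When classes under 30 cells were left out, a choice made after seeing the data, 2 of the first 10 genes remained among the first 10.

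Over thinned Gcg cells the correlation of Slc38a5 with each other member lay between -0.02 and 0.08 in WT and between -0.07 and 0.06 in Npc1KO (1013 and 841 cells), in sparse counts, Slc38a1 having no UMI in Npc1KO. Cells with a Slc38a5 UMI had more Slc38a4, at 119 against 98.6 CPM in WT and 124 against 83.2 CPM in Npc1KO, and more Slc3a2, at 208 against 163 and 161 against 127 CPM. Slc7a2 was at 261 against 278 CPM in WT and 299 against 370.2 CPM in Npc1KO, and Gcg itself differed by only 0.02 and 0.04 on the log2 scale.

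Of 1994 genes with at least 50 CPM in Gcg cells of both libraries, 1165 had the same sign in both when cells with a Slc38a5 UMI (729 in WT, 579 in Npc1KO) were set against cells without (284 and 262). Only 9 of them were at least 0.5 higher on the log2 scale in both libraries, and 2 at least 0.5 lower. The genes named here were picked for this pattern, so their values carry no test. Highest with Slc38a5 were Ube2c, which drives mitotic exit (log2 ratios 0.98 in WT and 1.06 in Npc1KO), Dapl1 (0.94 and 1.11), Vgf, a granule peptide precursor (0.72 and 0.74), Chtop (0.66 and 0.60), Gc (0.58 and 0.64), Cryba2 (0.59 and 0.55), Cald1, Psmc3, Tmod2 and Pla2g12a (0.48 to 0.81). Without cycling cells Ube2c turned to -0.23 in WT and fell to 0.49 in Npc1KO, while Dapl1 kept 1.18 and 0.93.

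Lowest with Slc38a5 were Sparc, a matrix protein (-0.64 and -1.44), the tetraspanin Tspan8 (-0.55 and -0.52), Basp1 (-0.46 and -0.64), Sox4, a transcription factor of endocrine development (-0.51 and -0.45), Gadd45b (-0.45 and -0.63), Enpp2 (-0.43 and -0.62), Arg1 (-0.42 and -0.45), Igfbp7 (-0.41 and -0.67), Aard and Pdk4 (-0.48 to -0.39). Sparc turned to 0.41 in WT when the highest doublet scores were removed, and the other 9 kept their sign there in both libraries. Arginase 1 transcripts thus stood at 129 CPM in WT cells with a Slc38a5 UMI and at 173 CPM in cells without, and at 135 and 184 CPM in Npc1KO.

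**Figure D5:**
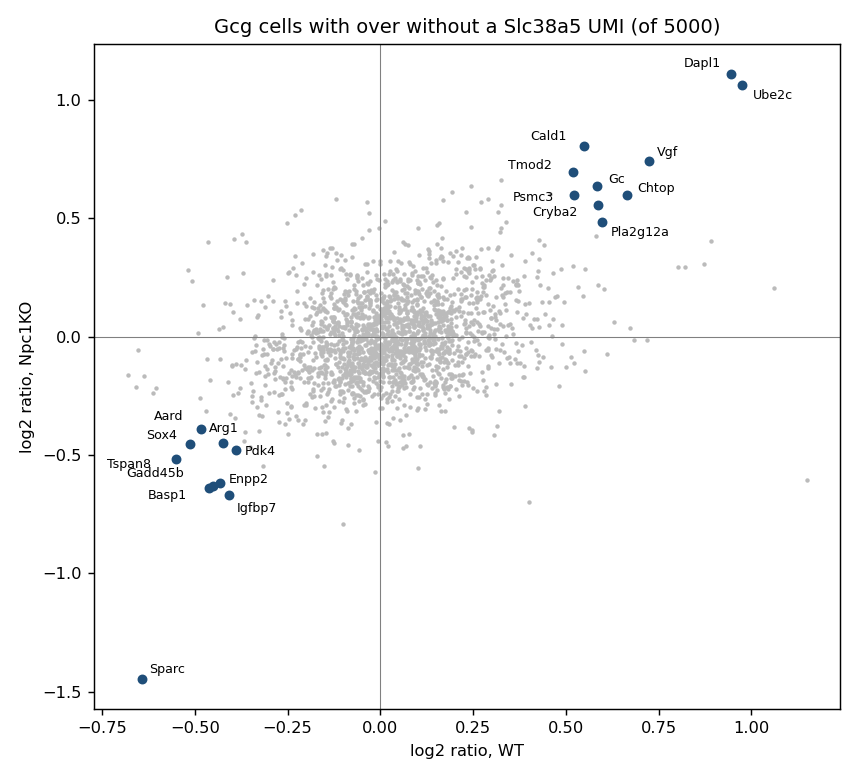
Log2 ratio of summed counts in Gcg cells with over those without a Slc38a5 UMI among 5000, in WT (x axis) and Npc1KO (y axis), for 1994 genes (grey points); the 10 highest and 10 lowest genes by the library with the smaller size are named. Dapl1 and Ube2c lie near 1 in both libraries, and Sparc lies far lower in Npc1KO (-1.44) than in WT (-0.64).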

How the data were processed

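Libraries were made with a 10x Genomics 3′ kit (v3 per the labels, another version in the study's methods). Per the submitters' processing notes, Cell Ranger 3.1.0 and Seurat 4.0.3 were used with mm10. The deposited values are raw UMI counts per gene and barcode from the authors' filtered matrices, with no normalization. The limits on genes, UMIs and mitochondrial share applied here match those in the study's methods, which also give 0.1 for red blood cells. The study's methods also name removal of double cells, which was not repeated. Counts were summed by library and class and scaled to CPM. Ratios used 0.5 added counts, genes with at least 5 CPM in either sum, and the median gene as zero. Intervals are 95% Poisson, Clopper-Pearson or conditional binomial. PCR duplicates are collapsed by UMI, but cells share a library, so intervals cover counting error only. Kept UMIs summed to 94096566 (WT) and 94392651 (Npc1KO). Non-endocrine cells were called X-like from marker lists (at least 5 UMIs). Scrublet's own threshold marked 6 and 3 cells (0.130% and 0.0703%) and so had not worked; no doublets were removed, and an alternative left out the 317 and 261 highest scores. Members, lists and markers were chosen with earlier results of these data known. Genes named from lists were the 2 highest and 2 lowest genotype ratios with at least 20 CPM, the 10 genes most like Slc38a5 over classes, and the 10 highest and 10 lowest with Slc38a5 among cells; genes past 1.5-fold in a list were named after their values were seen. A simulation drew Gcg counts of 9897 genes from a Poisson distribution, with 200 changed. Intervals covered the set ratio for 94.5% of changed and 95.5% of unchanged genes. The draws held no spread between cells or mice, so this coverage was built in and does not check the intervals against that spread. Analyses used Python 3.11.15, scanpy 1.11.5 and R 4.3.3 with edgeR 4.0.16 for TMM scaling only. Some genes of the lists and markers are not reported here.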

Additional observations from a re-analysis of the deposited data

Results flagged for a closer look

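Over all cells of a class, Slc38a4 went in opposite directions by genotype in different endocrine classes. Its Npc1KO over WT log2 ratio, set against the median gene, was 0.40 in PP cells (0.03 to 0.78, 158 against 100 UMIs), -0.11 in Gcg cells and -0.17 in Ins cells. With 1 library per genotype the difference between classes was not tested.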

How the results depend on the processing

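Of 69 values under alternatives for 7 main results, 43 stayed within the counting interval of the reported value. For Slc38a5 in Npc1KO over WT Gcg cells (-0.31), the ratio was -0.27 with looser cell filters, -0.38 without the highest doublet scores, -0.43 in cells with the next hormone under 5%, -0.38 as a mean over cells, -0.36 without cycling cells, -0.50 in cells under 3% Ppy and Pyy and 0.11, reversed, in those at 3% or more. Slc38a4 (-0.11) reversed to 0.20 in the latter cells and to 0.11 in cells low in immediate early genes, an alternative chosen after seeing the data. Cycling over other cells gave -0.59 in WT and -0.062 in Npc1KO with stricter filters, -0.54 and -0.062 with no floor, and -0.29 and 0.25 with cycling at 1 UMI. Gcg over Ins cells gave 4.71 and 4.92 with looser filters, 6.22 and 5.32 without the highest doublet scores, 4.96 and 5.20 at a leading hormone of 20%, 6.21 and 5.60 with the next hormone under 5%, 5.39 and 5.50 as plain ratios, and in WT 5.002 as a mean over cells. Thinned to 2500 UMIs, 56.3% and 50.1% of Gcg cells held a Slc38a5 UMI. Other causes of these shifts were not tested. No paired analysis was possible because each genotype had 1 library. No value carries a between-mouse error, and in alpha cells Slc38a1 was too sparse for a genotype ratio and that of Slc7a5 has a wide interval.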

Other observations

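Gcg cells high in Slc38a5 (6 or more UMIs of 5000) were also set against those with none, a cut chosen after the values were seen. The genes named are some of the 12 highest and 12 lowest of 4920, ranked by the library with the smaller size. They carry no test. Spp1, which encodes the secreted protein osteopontin, was at 86.3 against 18.4 CPM in WT and 116 against 25.5 CPM in Npc1KO. Agt, the angiotensin precursor, was at 123 against 29.8 CPM and 94.98 against 30.2 CPM. Dapl1 was at 269 against 86.7 CPM and 272 against 64.4 CPM, and Peg10, an imprinted gene, at 143 against 52.1 and 140.4 against 59.7 CPM. Lower in these cells were Mgst1, a glutathione transferase (12.4 against 35.5 CPM in WT and 18.2 against 72.3 CPM in Npc1KO), Rgs2, a regulator of G protein signalling (13.2 against 41.9 and 19.2 against 54.5 CPM), and the cyclin Ccnd1 (56.9 against 108 and 49.5 against 122 CPM). These 7 genes kept their direction in both libraries without cycling cells and without the highest doublet scores.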
